A study of Homo sapiens with 6 samples.

Results

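The genes described here are 10 inflammatory chemokines, CCL2, CCL5, CCL20, CXCL1, CXCL2, CXCL3, CXCL8, CXCL10, CXCL11 and CXCL16. They were taken by gene symbol from the 20729 rows of the count table, and each symbol had its own row. The genes were chosen by their counts in siOSBPL3 against siNC in these same libraries, so those values are given as a description, with standard errors and no p-values. RNA-seq was done on cells labelled SW620, an established human colorectal cancer line that was grown from a lymph node metastasis. In 3 libraries the cells had received a control siRNA (siNC), and in the other 3 an siRNA against OSBPL3 (siOSBPL3), which encodes a lipid-binding protein of membrane contact sites. All 6 libraries carry the same line label. The dose, the duration and the number of siRNA sequences are not given in the sources used here, nor whether replicate libraries were grown as separate cultures. The spread between replicates, and any p-value that rests on it, may therefore be technical.

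Chemokines are small secreted proteins that guide leukocytes through G-protein-coupled receptors. CXCL1, CXCL2, CXCL3 and CXCL8 act on CXCR2, CXCL8 also acts on CXCR1, and all of them draw neutrophils. CXCL10 and CXCL11 are induced by interferon and act on CXCR3 of activated T cells. CXCL16 is made as a membrane-bound protein and binds CXCR6. CCL2 draws monocytes through CCR2, CCL5 draws T cells and monocytes, and CCL20, which intestinal epithelium makes, draws CCR6-bearing dendritic and T helper cells. Many of these genes are transcribed when NF-kB enters the nucleus, and many of their mRNAs are short-lived.

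The stretches of promoter just before the start of transcription are printed first, because several of these genes carry the same short elements there. Promoter sequences came from RefSeq (GRCh38.p14), which matched 7 of the 10 genes, and CCL2, CCL5 and CXCL16 had no entry. Windows of 250 bases before to 50 after the start were searched on both strands for a kappa-B-type element (GGANNTTCC), an interferon-type element (GAAA, any 2 bases, GAAA), an AP-1 element (TGANTCA) and a TATA element (TATAAA). Capitals mark matches, and each line runs 5′ to 3′ along the gene and ends at the base before the start. The stretches of CXCL1 (chr4:73869243-73869392, plus strand), CXCL2 (chr4:74099196-74099345, minus strand), CXCL3 (chr4:74038690-74038839, minus strand) and CXCL8 (chr4:73740419-73740568, plus strand) show the kappa-B-type match of the neutrophil chemokines.
CXCL1: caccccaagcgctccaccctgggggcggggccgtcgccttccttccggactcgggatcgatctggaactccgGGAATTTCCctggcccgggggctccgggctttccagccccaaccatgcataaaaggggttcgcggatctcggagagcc
CXCL2: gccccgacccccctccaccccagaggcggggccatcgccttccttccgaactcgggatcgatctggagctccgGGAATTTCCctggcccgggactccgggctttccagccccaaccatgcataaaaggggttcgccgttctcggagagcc
CXCL3: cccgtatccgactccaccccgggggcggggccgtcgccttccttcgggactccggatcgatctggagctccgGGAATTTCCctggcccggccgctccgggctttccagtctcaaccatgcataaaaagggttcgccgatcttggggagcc
CXCL8: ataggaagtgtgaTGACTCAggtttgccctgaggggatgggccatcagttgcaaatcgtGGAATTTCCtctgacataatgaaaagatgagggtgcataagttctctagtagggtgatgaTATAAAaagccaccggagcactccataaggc

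The stretches of CXCL10 (chr4:76023498-76023747, minus strand, shown over 250 bases to take in its interferon-type match), CXCL11 (chr4:76036071-76036220, minus strand) and CCL20 (chr2:227813692-227813841, plus strand) are shown next.
CXCL10: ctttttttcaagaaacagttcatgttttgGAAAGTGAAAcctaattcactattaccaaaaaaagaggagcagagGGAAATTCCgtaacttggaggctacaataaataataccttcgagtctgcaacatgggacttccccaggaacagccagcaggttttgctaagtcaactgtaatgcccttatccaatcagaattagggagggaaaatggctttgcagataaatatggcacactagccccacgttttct
CXCL11: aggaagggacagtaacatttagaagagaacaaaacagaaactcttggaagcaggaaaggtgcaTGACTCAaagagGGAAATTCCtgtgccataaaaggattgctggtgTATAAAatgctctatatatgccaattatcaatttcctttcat
CCL20: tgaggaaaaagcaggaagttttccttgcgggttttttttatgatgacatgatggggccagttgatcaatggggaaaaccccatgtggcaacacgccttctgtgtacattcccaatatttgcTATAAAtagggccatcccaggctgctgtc

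A kappa-B-type match was found in 6 of the 7 windows, against 4.56% of the 35116 promoter windows of the same length in the RefSeq table. CXCL1, CXCL2, CXCL3 and CXCL8 share the identical 9 letters GGAATTTCC. The match began 78 bases before the start in CXCL1, 77 in CXCL2, 78 in CXCL3 and 91 in CXCL8. CXCL10 and CXCL11 share another form, GGAAATTCC, which began 176 and 75 bases before the start. The interferon-type element was found in CXCL10 alone of the 7 (3.57% of all windows), beginning 221 bases before the start. CXCL8 and CXCL11 held an AP-1 match (7.71% of all windows), and CCL20, CXCL8 and CXCL11 a TATA match (11.5% of all windows). In the CCL20 window no match to GGANNTTCC was found. In every window, a kappa-B element with other letters would have been missed by this search. Stretches such as ggggaaaacccc in CCL20 and gggacttcccc in CXCL10 cannot match the pattern and stayed unmarked. A window without a match is therefore not shown to lack a kappa-B element. Over the 250 bases before the start, CXCL1 and CXCL3 were identical at 81.4% of aligned positions, CXCL2 and CXCL3 at 73.4%, and CXCL1 and CXCL2 at 70.1%. The promoters of CXCL10 and CXCL11 were identical at 49.7% of positions. A match describes these letters and does not show that a factor binds there.

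Total counts ran from 30040020 to 39701340 per library. OSBPL3 (chromosome 7, 24796537 to 24981845) stood at 176 ± 2.70 CPM (counts per 1000000 reads on TMM-scaled library sizes; mean ± SD, n = 3) in siNC. In siOSBPL3 replicates 1, 2 and 3 it stood at 40.2, 12.2 and 15.1 CPM. Most genes differed between the groups, and 80.2% of the 15506 genes tested passed an adjusted p of 0.05 (edgeR quasi-likelihood test). Of 13 colorectal epithelial markers 9 had a mean of at least 1 CPM in siNC and 10 in siOSBPL3. Of the 11 tested, 5 were called higher and 4 lower. EPCAM and KRT8 were abundant in both groups. CDX2 went from 1.16 to 63.5 CPM, and LGALS4 and CDH17 rose as well, while VIL1 went from 482 to 62.6 CPM, and A1CF, KRT18 and KRT8 fell. KRT20 had 20 and 4 counts over the groups. Summed over 10 leukocyte markers, siNC libraries held 24.5 to 27.2 CPM and siOSBPL3 libraries 13.1 to 21.6 CPM, and the pan-leukocyte marker PTPRC stood at 0.0832 and 0.110 CPM. Among these markers CD8A, CD14 and ITGAM were called higher and CD4, LYZ and CD68 lower. Summed over 8 stromal and endothelial markers, siNC libraries held 72.2 to 76.7 CPM and siOSBPL3 libraries 3.64 to 6.78 CPM, and LUM, a connective tissue proteoglycan, went from 60.4 CPM to no count. XCL1 (2172 counts over siNC) and CXCL6 (678), like LUM (5785), had no count in any siOSBPL3 library. Differences of this size leave it unclear whether both groups hold the same cells, and an effect of the siRNA and a difference between the cells cannot be told apart in any comparison given here. The part that these marker differences have in the chemokine values was not tested.

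Of the 10 chemokines, 9 stood higher and only CCL20 stood lower in siOSBPL3, in each case with no overlap between the 3 libraries of either group. Groups did not overlap in 83.0% of all genes tested, with 41.5% of all genes higher in siOSBPL3 and 41.5% lower. At the adjusted p of 0.05 the counts were the same, 9 higher (40.4% of all genes tested) and 1 lower (39.8%). The 9 were all at least 2-fold higher (24.8% of all genes tested), and 6 of them at least 8-fold (7.56%). CCL20 was at least 2-fold lower (24.1% of all genes tested). Since this contrast was known when the genes were chosen, nothing is read from these counts. All 10 passed the filter on low counts, but CCL2, CCL5, CXCL10 and CXCL11 reached its level of 0.293 CPM in siOSBPL3 libraries only, so a difference in them was needed for them to be tested at all. In these bulk libraries, fewer cells making a transcript and less transcript per cell cannot be told apart.

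**Figure D1:**
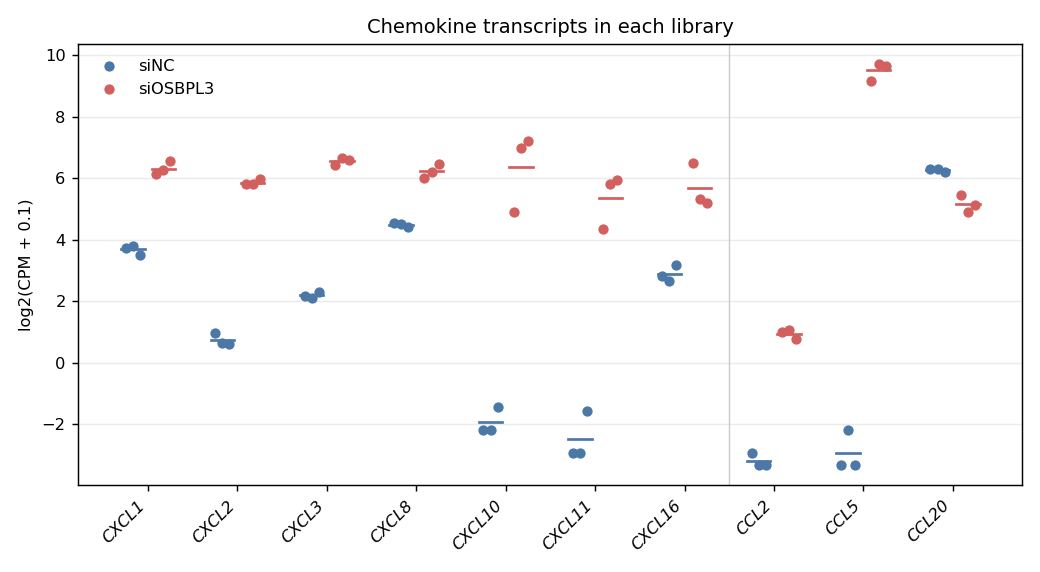
Level of each chemokine in each library as log2(CPM + 0.1), with siNC in blue, siOSBPL3 in red and horizontal lines at group means of 3 libraries. CCL5 spans the widest range, from at most 0.121 CPM in siNC to at least 576 CPM in siOSBPL3, and CCL20 is the gene whose red points lie below the blue ones.

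The neutrophil chemokines were measurable in both groups. CXCL8 (chromosome 4, 73740569 to 73743716), which encodes interleukin-8, stood at 23.4, 22.9 and 21.2 CPM in siNC replicates 1 to 3 and at 64.6, 74.7 and 89.1 CPM in siOSBPL3. Every siOSBPL3 library was above every siNC library, and the log2 fold change was 1.76 ± 0.12 (SE), or 2.42 with a correction for transcript GC content and length. CXCL1 (73869393 to 73871308) stood at 13.3, 13.9 and 11.3 CPM in siNC and at 69.8, 77.4 and 94.0 CPM in siOSBPL3, a log2 fold change of 2.65 ± 0.13. The groups were again well apart, and within siOSBPL3 the third library was the highest for both genes.

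CXCL3 and CXCL2 started lower and differed more. CXCL3 (74036589 to 74038689) stood at 4.38, 4.25 and 4.86 CPM in siNC and at 86.3, 101 and 96.7 CPM in siOSBPL3, a log2 fold change of 4.4 ± 0.11. CXCL2 (74097040 to 74099195) stood at 1.86, 1.48 and 1.42 CPM in siNC and at 55.7, 55.9 and 63.0 CPM in siOSBPL3, a log2 fold change of 5.19 ± 0.14. These were the most even of the 10 genes among siOSBPL3 libraries, with a coefficient of variation of 7.10% for CXCL2 and 7.98% for CXCL3. The proportions among the paralogues therefore differed between the groups. CXCL1 reads per CXCL2 read lay between 7.16 and 9.39 in the siNC libraries and between 1.25 and 1.49 in the siOSBPL3 libraries. For CXCL1 per CXCL3 the ratio was 3.04, 3.26 and 2.33 in siNC and 0.809, 0.767 and 0.972 in siOSBPL3, a ratio of reads that takes no account of transcript length. CXCL8 per CXCL1 was steady within each group, at 1.65 to 1.87 in the control libraries and 0.925 to 0.964 in siOSBPL3. These 3 GRO genes are close paralogues, but few stretches of 75 bases were identical between their transcripts: 0.293% of the windows of CXCL1 were also in CXCL2, 2.01% of the windows of CXCL2 were in CXCL3, and 0 of CXCL1 were in CXCL3.

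The interferon-inducible pair was nearly silent in siNC. CXCL10 (chromosome 4, 76021118 to 76023497) had 4, 4 and 8 counts in the siNC libraries and 1073, 4614 and 5822 counts in the siOSBPL3 libraries, which corresponds to 29.7, 126 and 147 CPM. The summed ratio, scaled for depth, was 613 with an exact 95% counting interval from 378 to 1073. CXCL11 (76033682 to 76036070) had 1, 1 and 7 counts in siNC and stood at 20.5, 56.2 and 61.2 CPM in siOSBPL3, a ratio of 494 (interval 260 to 1081). In both genes siOSBPL3 replicate 1 was well below replicates 2 and 3 and still far above every siNC library. The fitted log2 fold changes were 9.21 ± 1.12 for CXCL10 and 8.88 ± 0.78 for CXCL11. For CXCL11 it was 10.40 without siNC replicate 3, which held 7 of the 9 siNC counts. CXCL10 reads per CXCL11 read were 1.45, 2.25 and 2.41 in siOSBPL3 replicates 1 to 3. Counting intervals cover counting error only.

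CXCL16 (chromosome 17, 4733533 to 4739928), which also serves as a scavenger receptor on the cell surface, stood at 6.97, 6.27 and 8.90 CPM in siNC and at 89.6, 40.6 and 36.3 CPM in siOSBPL3. The groups did not overlap, and here siOSBPL3 replicate 1 was the highest library. The log2 fold change was 2.91 ± 0.39, and 2.23 with the correction for GC content and length. Its annotated ends overlap MED11 by 75 bases and ZMYND15 by 96 bases, and without the strand setting of the counting, reads there cannot be assigned. MED11 was higher by 0.75 ± 0.11 on the log2 scale (adjusted p = 5.4e-05, and 0.11 with the GC and length correction). ZMYND15 was higher by 3.64 ± 0.29 (adjusted p = 2.1e-07, both edgeR), and by 2.81 with that correction.

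CCL5 (RANTES; chromosome 17, 35871491 to 35880360) had 0, 4 and 0 counts in the siNC libraries and 20795, 30871 and 31779 counts in the siOSBPL3 libraries, or 576, 844 and 803 CPM. It was thus close to absent in one group and among the most abundant transcripts of the other. The fitted log2 fold change was 14.00 ± 0.34, but it hung on 4 counts in siNC replicate 2, without which it was 17.66. A long noncoding gene, LOC105371745, overlaps the CCL5 gene and had 44 counts over all 6 libraries.

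CCL2 (MCP-1; chromosome 17, 34255285 to 34257203) had 1, 0 and 0 counts in siNC and stood at 1.88, 2.00 and 1.62 CPM in siOSBPL3. It was higher in all 3 siOSBPL3 libraries, yet remained the lowest of the 10 genes there. The ratio was 175 with a counting interval from 31.0 to 6937, and the fitted log2 fold change of 7.03 ± 0.70 became 9.01 without siNC replicate 1, which held the single count, and 6.34 with limma-voom.

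CCL20 (MIP-3 alpha; chromosome 2, 227813842 to 227817556) stood at 78.4, 79.1 and 73.5 CPM in siNC and at 44.2, 30.1 and 34.9 CPM in siOSBPL3. All siOSBPL3 libraries were below all siNC libraries. The log2 fold change was -1.08 ± 0.12, which is 2.12-fold lower, and it stayed negative in all 14 refits, from -1.24 to -0.57. The value nearest 0 came from the correction for GC content and length.

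Ranked by level per kilobase of exon, the order of the genes differed between the groups. In siNC CCL20 led at 48.3 ± 1.91 CPM per kb (mean ± SD, n = 3), a level above that of 94.7% of tested genes of known length. CXCL8 and CXCL1 followed at 9.90 CPM per kb each, with overlapping ranges, and then CXCL16 (2.64), CXCL3 (2.03) and CXCL2 (1.06), whose ranges did not overlap. CXCL10, CXCL11, CCL5 and CCL2 came last, from 0.145 down to 0.00511 CPM per kb, each overlapping the next in the order. In siOSBPL3 CCL5 led at 490 ± 95.6 CPM per kb, above 99.7% of those genes. CXCL10 came next at 85.9 ± 53.3 CPM per kb, a mean whose libraries ran from 25.3 to 125 and overlapped CXCL1 at 62.1 ± 9.55. CXCL3 (42.7), CXCL2 (38.8), CXCL8 (33.5), CXCL11 (24.1), CCL20 (22.8) and CXCL16 (19.9) followed, and each of these neighbours overlapped in range. CCL2 was last at 0.923 ± 0.0977 CPM per kb.

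The summed level of the 10 genes was 128.5, 128.1 and 121.7 CPM in the siNC libraries and 1038, 1408 and 1427 CPM in the siOSBPL3 libraries. CCL20 made up 60.4% to 61.7% of the sum in siNC and 2.13% to 4.26% in siOSBPL3. CCL5 made up at most 0.0941% in siNC and 55.5% to 60.0% in siOSBPL3. The 4 neutrophil chemokines held 31.9% to 33.5% of the sum in siNC and 21.9% to 26.6% in siOSBPL3. CXCL10 and CXCL11 together went from 0.118% to 0.416% up to 4.83%, 12.95% and 14.6% in siOSBPL3 replicates 1 to 3. The make-up was therefore led by a different gene in each group, and by the same gene in each library of a group.

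**Figure D2:**
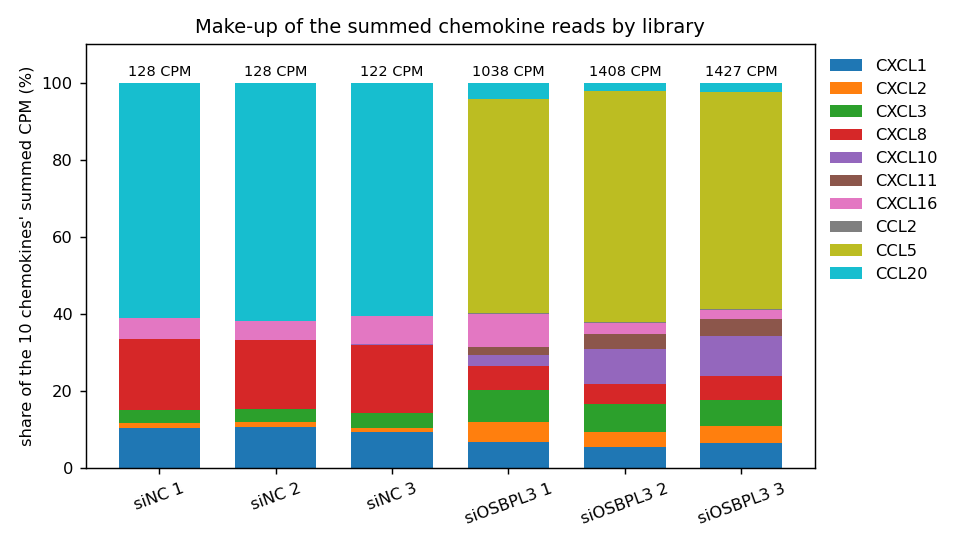
Stacked bars give each chemokine's share, in percent, of the summed CPM of the 10 genes in each library, with that sum printed above each bar. CCL20 takes about the same large share of each siNC bar (60.4% to 61.7%), and CCL5 that of each siOSBPL3 bar (55.5% to 60.0%).

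Within siOSBPL3 the genes differed by degrees in how far replicate 1 stood from the other libraries. The level in replicate 1 divided by the mean of replicates 2 and 3 was 0.217 for CXCL10, 0.349 for CXCL11 and 0.699 for CCL5. CXCL8 (0.788), CXCL1 (0.814), CXCL3 (0.873), CXCL2 (0.937) and CCL2 (1.04) were closer to 1. CCL20 (1.36) and CXCL16 (2.33) were higher in replicate 1. Over the 10890 genes with at least 5 CPM in siOSBPL3 this ratio had a median of 0.958, and 5% of genes lay below 0.732 and 5% above 1.41. Of these genes 0.00918% had a lower ratio than CXCL10 and 0.0367% a lower ratio than CXCL11, and 99.7% had a lower ratio than CXCL16. Replicate 1 was also the siOSBPL3 library with the highest OSBPL3 level, 2.94 times the mean of the others. Of 20 genes of interferon sensing and signalling with at least 5 CPM, 13 had a ratio below 1 and 7 above (median 0.969, from 0.627 for IFIH1 to 1.30 for JAK1). Of 14 NF-kB subunits and inhibitors 8 were below 1 and 6 above (median 0.937, from 0.713 for NFKBIZ to 1.22 for RELB). Replicate 1 was therefore not low across either list. Whether the spread in OSBPL3 has a part in the spread of the chemokines was not tested.

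**Figure D3:**
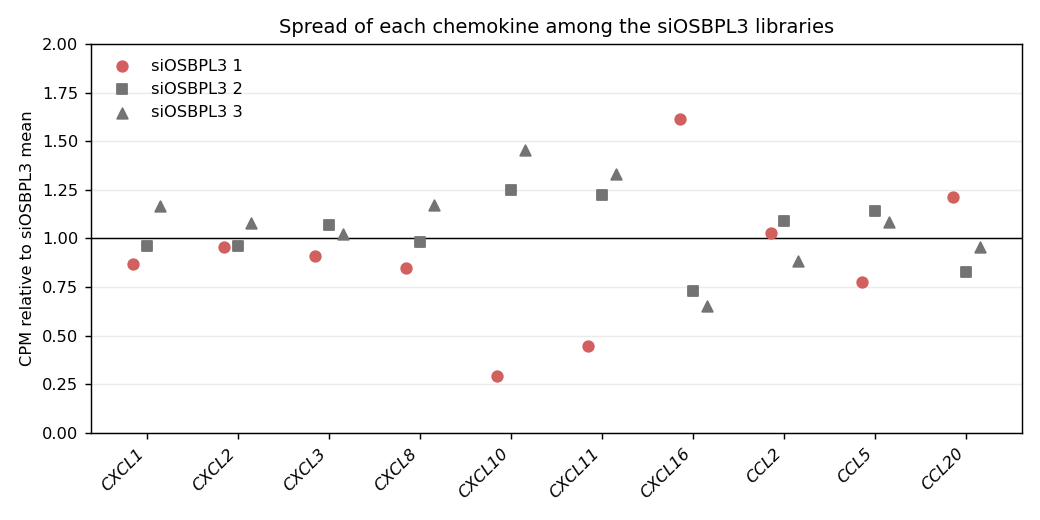
Level of each chemokine in each siOSBPL3 library divided by the siOSBPL3 mean, with replicate 1 as red circles, replicate 2 as squares and replicate 3 as triangles. Replicate 1 lies far below the others for CXCL10 and CXCL11 and far above them for CXCL16, while CXCL2, CXCL3 and CCL2 lie near 1 in every library.

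Several of the genes are neighbours in the genome. CXCL8, CXCL1, CXCL3 and CXCL2 lie within 359 kb on chromosome 4, together with 5 other protein-coding genes, all of them chemokines of the same family. CXCL10 and CXCL11 lie within 15 kb of each other further along chromosome 4. In the first cluster the 4 described genes were higher in siOSBPL3, and 2 neighbours that lie between them went in opposite directions. CXCL5 (73995642 to 73998677), another neutrophil chemokine, had 9, 10 and 2 counts in siNC and 32233, 32829 and 43925 counts in siOSBPL3. The fitted log2 fold change was 12.08 ± 0.23, and at 967 ± 124 CPM (n = 3) it had more reads than any of the 10 genes. CXCL6 (73836678 to 73838760), the nearest relative of CXCL5, had 243, 236 and 199 counts in siNC and no count in siOSBPL3. With 3 counts in siOSBPL3 as the floor for the whole group, CXCL6 was at least 265-fold lower. No stretch of 75 bases was shared between their transcripts (0% of windows in either direction).

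The promoters of CXCL5 (chr4:73998678-73998827, minus strand) and CXCL6 (chr4:73836528-73836677, plus strand) are shown because they were more alike than any other pair compared, identical at 85.3% of aligned positions over 250 bases, and both carry the GGAATTTCC of CXCL1, CXCL2, CXCL3 and CXCL8.
CXCL5: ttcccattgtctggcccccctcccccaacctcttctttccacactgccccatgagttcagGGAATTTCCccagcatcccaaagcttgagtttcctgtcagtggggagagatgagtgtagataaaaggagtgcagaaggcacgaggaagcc
CXCL6: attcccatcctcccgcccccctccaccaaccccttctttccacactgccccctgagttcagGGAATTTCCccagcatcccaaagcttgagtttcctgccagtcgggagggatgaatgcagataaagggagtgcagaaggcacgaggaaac

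The kappa-B-type match began 90 bases before the start in CXCL5 and 89 in CXCL6. CXCL5 stood higher and CXCL6 lower in siOSBPL3. Whether this match has a part in either difference was not tested. The platelet chemokine gene PPBP had 0 counts in siNC and 17 in siOSBPL3. At the CCL5 locus, the neighbours HEATR9 (0 and 62 counts over the groups) and RDM1 (37 and 559 counts) also had more reads in siOSBPL3. RDM1 was called higher by 3.68 ± 0.44 on the log2 scale (adjusted p = 8.0e-06, edgeR). At the CXCL10 and CXCL11 locus, the neighbour SDAD1 was at -0.18 ± 0.08 (adjusted p = 0.055, edgeR), and ART3, which overlaps both genes, had 1 count. SLC19A3, next to CCL20, had 48 counts in siNC and 0 in siOSBPL3 and was not tested.

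**Figure D4:**
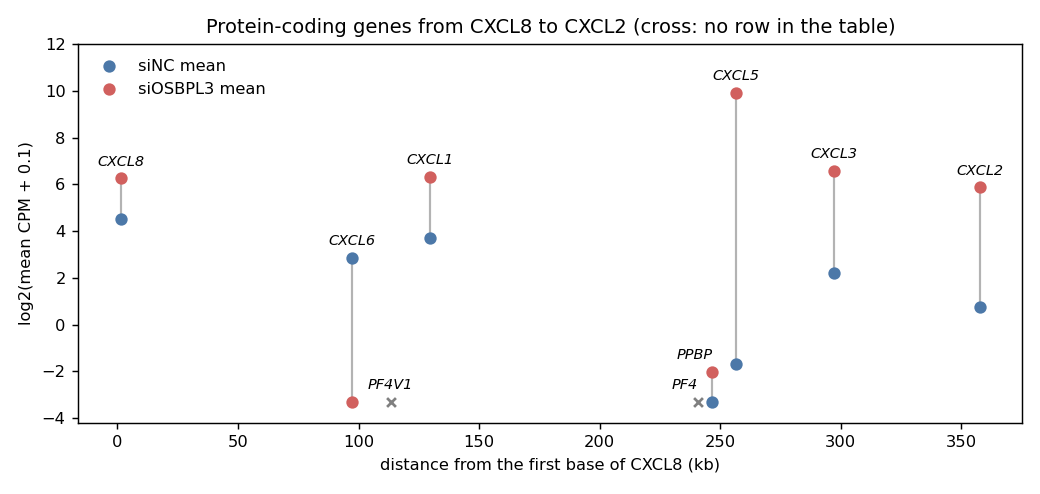
Mean level as log2(CPM + 0.1) of the protein-coding genes from CXCL8 to CXCL2 against distance in kb, with siNC in blue and siOSBPL3 in red and crosses for genes without a row. Only CXCL6 has its blue point above its red point, and CXCL5 has the longest line.

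Of 38 other chemokine ligands listed, 16 had a row and 12 could be tested, and 8 were called higher and 4 lower, against 40.4% and 39.8% of all genes (median log2 fold change 4.41, against -0.00089 over all genes tested and 4.80 over the 10 genes). Here too the filter bears on the split: 5 of the 12 reached its level in no siNC library, and 2 in no siOSBPL3 library. CX3CL1, a membrane-bound chemokine of epithelium and endothelium, rose from 5.73 ± 0.75 to 203 ± 47.3 CPM (n = 3 each), by 5.15 ± 0.18 on the log2 scale (adjusted p = 1.9e-10, edgeR). CCL22, a ligand of CCR4, rose from 4 counts over siNC to 6.16 ± 1.51 CPM, a ratio of 147 (interval 57.3 to 542). CCL3, CCL3L3 and CCL4L2, which draw monocytes and T cells, went from 0, 0 and 1 counts over siNC to 385, 1294 and 621 counts over siOSBPL3. They have near-identical copies, so their levels are uncertain. CCL25 (3.68 ± 0.74) and CCL26 (1.68 ± 0.51) rose from low levels, and the call of CCL26 was lost without siNC replicate 2 (edgeR adjusted p = 0.051). CCL25 was at 5.65 without siNC replicate 1, and at 2.84 with the correction for GC content and length. The genes that fell were XCL1, CXCL6, CCL24 (-1.88 ± 0.44, and -2.54 with that correction) and CCL28 (-1.45 ± 0.34). CCL28, a mucosal epithelial chemokine, went from 16.7 ± 1.66 to 6.11 ± 3.66 CPM. XCL1, a lymphocyte chemokine, went from 22.7 ± 1.25 CPM to no count.

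Receptors for these ligands were scarce. No receptor reached 1 CPM in siNC, and of 23 chemokine receptors 12 had a row and 7 could be tested. Of these 5 were called higher and 0 lower, against 40.4% and 39.8% of all genes tested, with a median log2 fold change of 4.81. CCR1, CCR3, CXCR2 and CCRL2 reached the filter level of 0.293 CPM in no siNC library and were tested only because they were high in siOSBPL3, so the filter largely fixed this split and median. CCRL2, a relative of these receptors, rose from 3 counts over siNC to 7.54 ± 1.21 CPM. CXCR2, which receives CXCL1, CXCL2, CXCL3, CXCL5 and CXCL8, had 1 count in siNC and stood at 1.5 ± 0.51 CPM in siOSBPL3. CCR10, the receptor of CCL28, rose from 0.264 to 2.07 CPM (2.96 ± 0.46, and 1.67 with the correction for GC content and length). CCR1 and CCR3 rose to 0.683 and 0.705 CPM from 2 counts each. The fitted log2 changes of CCRL2 (7.75), CXCR2 (6.74) and CCR1 (4.81) hung on those few siNC counts and became 8.66 without siNC replicate 3, 8.72 without siNC replicate 1 and 7.59 without siNC replicate 2. CCR6, the receptor of CCL20, had 18 and 34 counts over the groups and was not called (adjusted p = 0.33, edgeR), nor was the decoy receptor ACKR2, with 24 and 34 counts (adjusted p = 0.78, edgeR). CXCR4 had 45 counts in siNC and 2 in siOSBPL3 and CCR7 18 and 0, and neither passed the filter. Where the filter was dropped, 5 receptors were higher and 2 lower, and without siNC replicate 2 or any 1 siOSBPL3 library 5 were higher and 1 lower.

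Of 15 NF-kB subunits and inhibitors 11 were called higher, 2 lower and 2 not called, against 40.4% higher and 39.8% lower over all genes tested, with a median log2 fold change of 1.46. The inhibitor genes NFKBIE (3.58 ± 0.13), TNIP1 (3.36 ± 0.10) and NFKBIA (2.60 ± 0.10) and the subunit genes RELB (2.77 ± 0.13) and NFKB2 (2.11 ± 0.08) rose on the log2 scale. NFKBIZ (2.60 ± 0.14) and BCL3 (2.29 ± 0.14), nuclear cofactors for some NF-kB targets, rose too. REL (-1.62 ± 0.10) and the kinase gene CHUK (-0.75 ± 0.09) fell. RELA was at 0.27 ± 0.11 (adjusted p = 0.046, edgeR), a call lost in 8 alternatives, and -0.24 with the correction for GC content and length. That correction also gave RELB 1.61, NFKB2 1.27, NFKBIE 2.62, TNIP1 2.75, BCL3 1.08, REL -0.71 and CHUK 0.09, which was no longer called.

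Among 23 tested genes of cytokine and Toll-like inputs to NF-kB, 18 were called higher, 3 lower and 2 not called (40.4% and 39.8% of all genes tested; median log2 fold change 1.42). In 4 of them no siNC library, and in 1 no siOSBPL3 library, reached the filter level. IL1R1, the receptor of interleukin-1, rose from 0.215 to 13.6 ± 2.00 CPM (6.0 ± 0.32 on the log2 scale), and IL1A went from no count to 3.25 ± 0.53 CPM. TLR2 (5.79 ± 0.41), IL1RN (6.96 ± 0.78), LTB (3.97 ± 0.21) and TLR3 (3.85 ± 0.28) also rose. TLR2 was at 6.72 without siNC replicate 1, IL1R1 at 6.60 without siNC replicate 3 and IL1RN at 6.27 without siOSBPL3 replicate 1. LTB and TLR3 were at 2.81 and 4.60 with the correction for GC content and length. TNF itself stood at 0.545 ± 0.103 and 4.00 ± 0.249 CPM. TNF rose by 2.87 ± 0.29 on the log2 scale, and by 2.23 with the correction. The adaptor gene TRAF6 (-1.85 ± 0.10) and the receptor gene IL1RAP (-1.48 ± 0.16, and -0.79 with the correction) fell, and TLR4 went from 67 counts to 1.

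Of 21 tested genes of interferon sensing and signalling, 17 were called higher, 3 lower and 1 not called (40.4% and 39.8% of all genes tested; median 1.24). IFNL1, IFNB1 and CGAS reached the filter level in no siNC library. Among the interferon genes, IFNL1 went from no count in siNC to 12.5 ± 2.90 CPM and IFNB1 from no count to 1.68 ± 0.0454 CPM. CGAS (7.53 ± 0.32), DDX58 (RIG-I; 3.94 ± 0.14) and STING1 (3.61 ± 0.14) rose. CGAS was at 8.28 without siNC replicate 3. IFIH1, another RNA sensor, rose by 2.93 ± 0.17, and the factor gene IRF7 by 2.79 ± 0.16, or 1.5 with the correction for GC content and length. The interferon-gamma receptor gene IFNGR1 rose from 69.2 ± 3.37 to 446 ± 30.0 CPM. JAK1 (-2.08 ± 0.11), MAVS (-1.10 ± 0.08) and STAT2 (-0.73 ± 0.09) fell.

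A list of 9 genes for mRNA-binding proteins mostly held binders of AU-rich elements. Of these 9 genes 4 were called higher and 5 lower (40.4% and 39.8% of all genes tested). Their median log2 fold change was -0.41, and with the correction for GC content and length 5 were called higher and 2 lower. ZC3H12A, an RNase that degrades inflammatory mRNAs, rose (2.05 ± 0.09, and 1.14 with the correction), as did ZFP36 (1.35 ± 0.11, and 0.55), while ZFP36L1 fell (-1.14 ± 0.08). Of 6 tested genes of chemokine processing and display 4 rose and 2 fell (median 0.83; the same shares of all genes apply), and 4 and 0 with the correction. DPP4, a peptidase that clips CXCL10 and CXCL11, rose from 0.573 to 18.5 ± 2.39 CPM (5.0 ± 0.21). SDC1 and SDC4, heparan sulphate proteoglycans that hold chemokines at the surface, rose by 2.13 ± 0.10 (1.35 with the correction) and 1.32 ± 0.07. ADAM10 and ADAM17, the proteases that shed CXCL16, were at -1.21 ± 0.09 and -0.52 ± 0.08, but at -0.16 (adjusted p = 0.11, edgeR) and 0.35 with that correction.

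**Figure D5:**
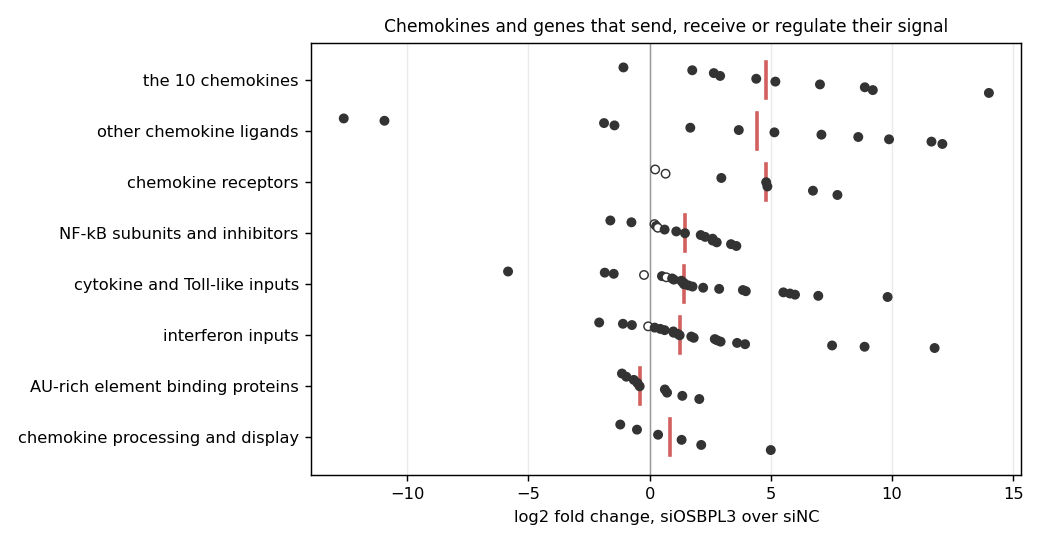
Each point is the log2 fold change (siOSBPL3 over siNC) of a tested gene, filled where its adjusted p was under 0.05 and open otherwise, and red bars mark medians. The 10 chemokines run from -1.08 to 14.00, and the other ligands also hold the 2 largest falls shown, XCL1 and CXCL6, whose fitted values rest on no count in siOSBPL3.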

How the data were processed

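Total RNA from 3 siNC and 3 siOSBPL3 libraries of cells labelled SW620 was sequenced in pairs on a NovaSeq instrument, per the labels' protocols. The authors deposited raw read counts per gene symbol, and HISAT2 2.2.1, HTSeq 0.13.5 and GRCh38 are named in the submitters' processing notes. The annotation, strand setting and filters are not given in the sources used here. Each column was tied to its sample through the library name in the labels.

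The deposited counts were fitted with edgeR 4.0.16 in R 4.3.3. Genes were kept by filterByExpr (minimum count 10, total 15) and scaled by TMM, and the robust quasi-likelihood model held only the group term. Two-sided p-values were adjusted by Benjamini-Hochberg across the 15506 genes kept and called under 0.05. Positive log2 values mean higher in siOSBPL3, and each SE was taken as the fitted value over the root of F. Intervals are exact binomial intervals of the summed counts. Levels per kb used GENCODE 29 exon lengths. The fit was also run on simulated counts with few changed genes and the same spread in both groups. That setting differs from these libraries, so it does not bear on error rates here. Replicates of a group differed by more than counting error. Chi-square over its degrees of freedom was 2.94 to 3.52 between siNC libraries and 18.4 to 48.9 between siOSBPL3 libraries. The siOSBPL3 pairs with replicate 1 were at 41.8 and 48.9, and replicates 2 and 3 at 18.4. Alternatives were DESeq2 1.42.0, limma-voom 3.58.1, other scalings and filters, a threshold of 0.01, a replicate block, each library left out, and a per-library GC and length correction (mgcv 1.9.3; 89.1% of tested genes).

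The 10 genes and the gene lists were chosen with earlier results of these data known. Genes named in the lists were the 6 called members with the largest change and a mean of at least 1 CPM, all tested ligands and receptors, and members of short lists. Others were named after their values were seen. Gene positions came from RefSeq on GRCh38.p14.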

Additional observations from a re-analysis of the deposited data

How the results depend on the processing

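No chemokine of the 10 changed direction in any alternative. Of 139 refitted log2 fold changes, 129 moved by no more than 1 SD of the libraries and 10 moved further, 5 of these in CCL2. With limma-voom 9 of the 10 passed the threshold, and CXCL10 did not. Calls of these 10 genes are a description only, because this contrast was known when they were chosen. With a mean of at least 5 CPM required, 9 were left to test. Under that filter 5 other ligands, 0 receptors, 1 leukocyte marker and 2 stromal and endothelial markers were called, against 12, 5, 6 and 4, because fewer genes were tested. Without any filter 7 receptors were called, 2 of them lower. Genes called over the whole table numbered 12437, and from 9396 to 13157 over the alternatives. Same-numbered libraries did not deviate together (correlations of -0.03, 0.01 and -0.03 over 11206 genes). With the replicate block 12277 genes were called. With the GC and length correction 3 epithelial markers were higher and 5 lower, against 5 and 4, and without siNC replicate 1 or 2 there were 3 and 4. The fitted folds of CCL2, CCL5 and CXCL11 hang on single siNC libraries.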

Other observations

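The genes nearest in pattern to each chemokine were sought by the root mean square difference, over the 6 libraries, of log2(CPM + 0.1) centred on each gene's mean. With 2 groups far apart, this mostly matches the size of the difference between groups. Nearest to CCL5 were CXCL5 (0.56), the noncoding gene AFAP1-AS1 (0.67) and LCN2 (0.82), which encodes the iron-siderophore carrier lipocalin-2 and stood at 0.192 CPM in siNC and 882 CPM in siOSBPL3. CXCL10 and CXCL11 were each other's nearest gene (0.38), followed for CXCL10 by SLC1A3 (0.53) and for CXCL11 by PLCB4 (0.48). Nearest to CXCL2 was the interferon-induced gene IFI6 (0.11), and nearest to CXCL8 was BTG3 (0.02), an antiproliferative gene. CXCL1 was nearest to CRIM1 (0.09), CXCL3 to ARSD (0.09), CXCL16 to LOC101929494 (0.12), CCL2 to NUTM2D (0.06) and CCL20 to C5orf22 (0.03).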
